A study of Mus musculus with 2 samples.

Results

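MHC class I genes let a cell show fragments of its own proteins to CD8 T cells, and 10 genes of this pathway were followed across the cells of abraded peritoneal walls that carried ovarian tumors. They were H2-K1, H2-D1, B2m, Tap1, Tap2, Tapbp, Psmb8, Psmb9, Psmb10 and Nlrc5, chosen by symbol from the 32285 genes of the count table, and all 10 were measured. The tissue came from female C57BL/6 mice, 6 to 8 weeks old, whose peritoneal wall was abraded and which then received syngeneic ovarian cancer cells (genotype p53-/-, myc, Hras) i.p. From the next day the mice were given control IgG or an Activin A neutralizing antibody i.p. every day. Tissue was pooled over the mice of a group, 7 for control IgG and 8 for the antibody with 10 days of treatment in the sample labels, and the study's text gives other numbers of mice and days for its single-cell experiment. The groups share the abrasion, the injected line and the daily injections, and no library of unwounded or tumor-free tissue was analysed here. Each group is 1 library, so no test between the groups was possible. A difference due to the antibody and one due to the handling of a library cannot be told apart.

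The pathway works in steps. The immunoproteasome, in which Psmb8, Psmb9 and Psmb10 replace the constitutive catalytic subunits Psmb5, Psmb6 and Psmb7, cuts proteins into peptides. The transporter made of Tap1 and Tap2 carries the peptides into the endoplasmic reticulum, where tapasin, encoded by Tapbp, helps to load them onto a heavy chain (H2-K1 or H2-D1) paired with beta-2 microglobulin (B2m). Nlrc5 is the transactivator of class I genes, and interferon gamma is a well-known inducer of nearly every gene of the pathway. Haematopoietic cells usually carry much class I, and tumor cells are known for low or variable levels.

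Cells with 1000 to 8500 genes, 1000 to 100000 UMIs (unique molecular identifiers, each counting 1 captured transcript) and at most 10% mitochondrial UMIs were kept, 8770 with control IgG and 6386 with the antibody. The cells were sorted by marker genes into 4 classes. The cancer-like class held 315 and 331 cells, the fibroblast-like class 243 and 253, the myeloid-like class 2106 and 886 and the lymphoid-like class 5594 and 4493. Of all 7 cancer markers, 8 fibroblast markers, 19 myeloid markers and 12 lymphoid markers, none was at 0 in its own class in either library. Their summed level there was at least 5930, 33394, 14250 and 3310.4 CPM. The same markers set the classes, so these levels are no separate check of the class names. Fibroblast-like cells carried a summed 364 and 421 CPM of cancer markers, and 54 and 42 of them had at least 2 mesothelial markers, as had 50 and 51 cancer-like cells. The libraries shared 19 cell barcodes, where 27.1 would be shared by independent draws. Levels are UMIs of a gene per 1000000 UMIs of the class (CPM), with exact Poisson 95% intervals that cover counting error only. UMIs count transcript ends, so no level was divided by gene length, and levels are compared between cells, not between genes.

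The genes lie on 3 chromosomes (GRCm38). Of the 10, 7 are in the MHC region of chromosome 17. Psmb9 (chr17:34181987-34187764), Tap1 (chr17:34187553-34197225), Psmb8 (chr17:34197721-34201454) and Tap2 (chr17:34203527-34216321) fill a stretch of 34.3 kb. Tapbp (chr17:33915899-33929292) and H2-K1 (chr17:33996017-34000347) lie before it and H2-D1 (chr17:35262730-35267499) after it. B2m is on chromosome 2 (chr2:122147686-122153083), and Psmb10 (chr8:105935735-105938444) and Nlrc5 (chr8:94434356-94527272) are on chromosome 8. Psmb9 and Tap1 start head to head and overlap by 212 bases, and 8 of the 10 genes overlap another annotated gene. Whether the counting used strand was not given in the sources used here. Tapbp overlaps Zbtb22 on the same strand by 3422 bases, where strand could not keep their reads apart. No stretch of 91 bases in the last 500 bases of the longest coding transcript of any of the 10 genes was found in a transcript of another counted gene.

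The upstream sequences are shown for the heavy chains, B2m and Tap1, because H2-D1 and Tap1 are the genes 1.5-fold lower in fibroblast-like cells below, H2-K1 is the other classical heavy chain and B2m is their shared partner chain. Each is the 250 bases before the RefSeq start (GRCm38.p6), 5′ to 3′ on the gene's strand. Capitals mark the letters of 5 motifs searched on both strands, GAAANNGAA of the interferon-stimulated response element, TTCNNNGAA of STAT sites, GGGGATTCC of NF-kB, CCAAT of the Y box and TGACG of the X2 box. The first is H2-K1 at chr17:34000348-34000597 on the minus strand, then H2-D1 at chr17:35262844-35263093, B2m at chr2:122147437-122147686 and Tap1 at chr17:34187306-34187555, all on the plus strand.
H2-K1: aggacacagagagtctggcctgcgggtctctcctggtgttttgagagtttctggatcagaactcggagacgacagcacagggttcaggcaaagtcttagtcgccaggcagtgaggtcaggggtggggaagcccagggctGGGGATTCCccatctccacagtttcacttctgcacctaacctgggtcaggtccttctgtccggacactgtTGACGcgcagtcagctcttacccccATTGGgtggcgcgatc
H2-D1: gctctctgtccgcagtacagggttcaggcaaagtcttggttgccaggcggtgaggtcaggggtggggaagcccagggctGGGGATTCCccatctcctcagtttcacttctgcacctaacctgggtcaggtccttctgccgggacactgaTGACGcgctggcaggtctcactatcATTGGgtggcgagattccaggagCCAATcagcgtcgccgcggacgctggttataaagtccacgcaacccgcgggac
B2m: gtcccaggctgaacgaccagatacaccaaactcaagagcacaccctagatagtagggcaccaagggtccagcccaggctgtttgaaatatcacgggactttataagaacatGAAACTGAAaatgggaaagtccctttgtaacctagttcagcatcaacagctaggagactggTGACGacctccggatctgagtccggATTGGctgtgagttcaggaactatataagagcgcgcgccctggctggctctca
Tap1: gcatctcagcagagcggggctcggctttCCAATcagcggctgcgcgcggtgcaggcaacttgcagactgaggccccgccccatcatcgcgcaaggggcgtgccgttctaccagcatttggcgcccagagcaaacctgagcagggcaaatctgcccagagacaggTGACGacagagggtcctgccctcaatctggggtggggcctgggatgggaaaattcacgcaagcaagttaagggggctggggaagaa

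Of the 10 genes, 8 had a window in the RefSeq table, with 9 windows because H2-K1 has 2 starts. H2-K1 and H2-D1 both held the NF-kB letters, found in 0.213% of the 32851 promoter windows of all genes, followed by the X2 and Y box letters on the way to the start. TGACG was in 5 of the 8 genes (H2-K1, H2-D1, B2m, Tap1 and Psmb9) and in 17.8% of all windows, and CCAAT was in 6 of the 8, the same 5 and Tapbp, and in 33.8% of all windows. The interferon letters, in the exact spelling searched, were found in B2m alone of the 8 and in 7.13% of all windows. The STAT letters, which read the same on both strands, were in Psmb8 alone and in 7.02%. None of these matches overlapped another motif. The Tap1 and Psmb9 windows share 225 bases, and the 2 matches in each are the same bases read from either strand. Psmb10 held none of the 5 motifs in this window, and Tap2 and Nlrc5 had no entry. These are matches of letters and not mapped binding sites. Other spellings or spacings of the interferon-stimulated response element were not searched. Whether the windows of H2-K1, H2-D1 or the other genes hold such a form was therefore not tested.

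The heavy chains and B2m were lowest in cancer-like cells and 2.53 to 4.17 times as high in the class where each was highest. H2-K1, the heavy chain H-2K, stood at 740 CPM (95% interval 727 to 753) in cancer-like cells of the control IgG library, at 3068 CPM (3017 to 3119) in fibroblast-like, 2233 CPM (2210 to 2256) in myeloid-like and 2050 CPM (2035 to 2065) in lymphoid-like cells. In the antibody library it stood at 734, 2126, 1929 and 2234 CPM in the same order. Fibroblast-like cells were thus the highest class for H2-K1 with control IgG and came second to lymphoid-like cells with the antibody, and no neighbouring classes had overlapping intervals in either library. H2-D1, the heavy chain H-2D, was at 735, 3064, 2496 and 1976 CPM with control IgG and at 682, 2041, 2077 and 1822 CPM with the antibody. Its order was the same as that of H2-K1 with control IgG, and with the antibody the intervals of myeloid-like and fibroblast-like cells overlapped. B2m, the light chain, was at 1036, 2820, 2877 and 1789 CPM with control IgG and at 942, 2229, 2386 and 1928 CPM with the antibody. Myeloid-like cells were the highest class for B2m in both libraries, with an interval that overlapped that of fibroblast-like cells with control IgG.

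**Figure D1:**
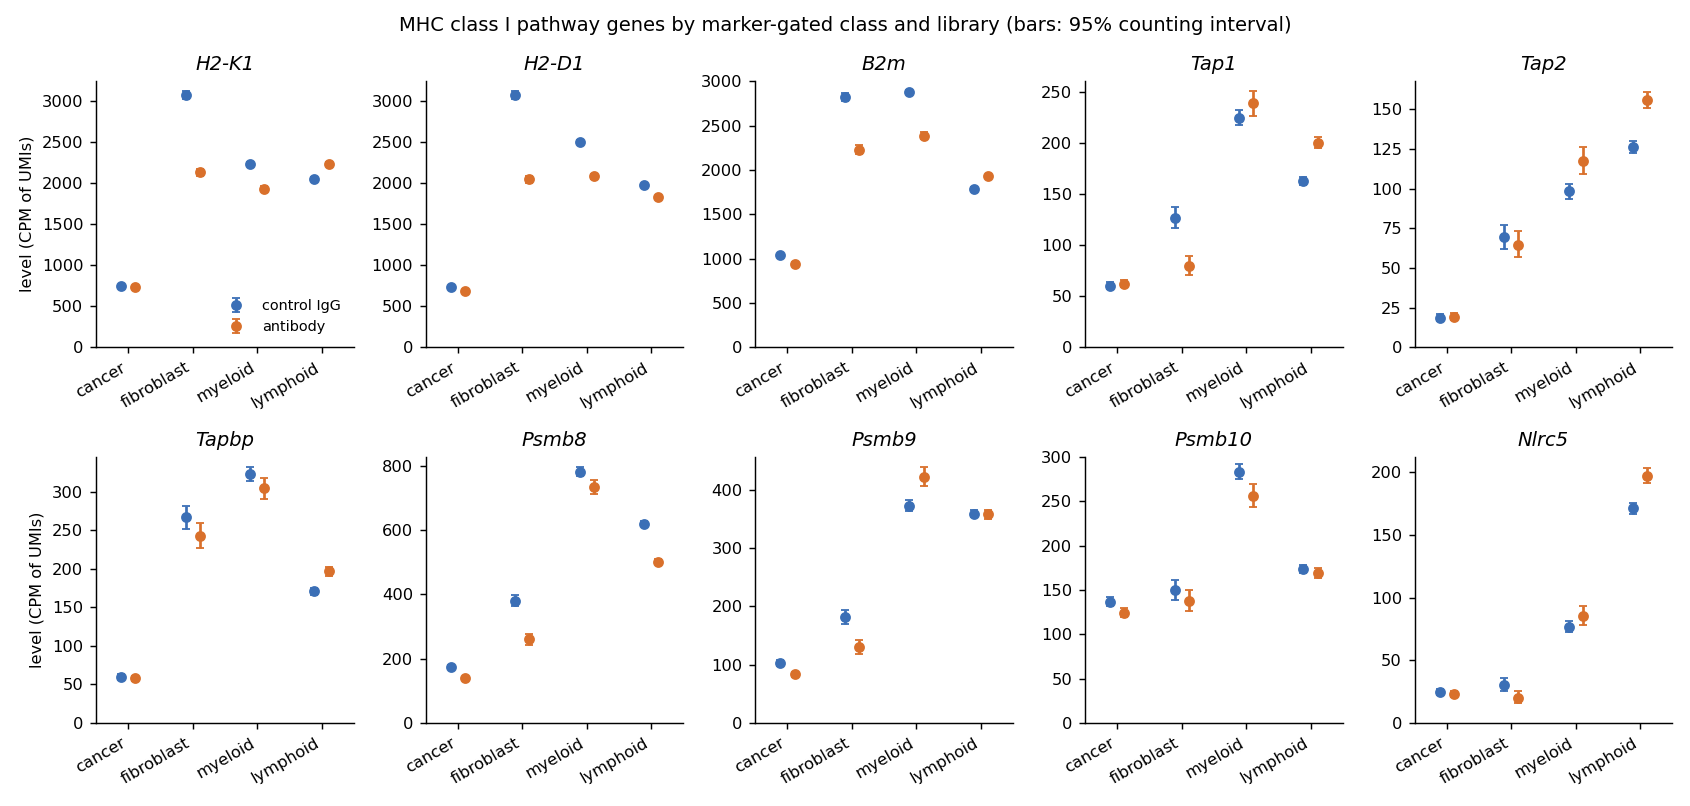
Level of each of the 10 genes (y axis, CPM of UMIs, from 0) in the 4 marker-gated classes (x axis) with control IgG (blue) and with the Activin A neutralizing antibody (orange), where bars are 95% Poisson counting intervals and each point is 1 library. Cancer-like cells are lowest for all genes but Nlrc5 in the antibody library, and the blue point of H2-K1 in fibroblast-like cells, 3068 CPM, stands well above the orange one, 2126 CPM.

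The genes of peptide transport and loading were lowest in cancer-like cells too, and highest in immune cells. Tap1, a subunit of the peptide transporter, was at 60.4, 127, 225 and 163 CPM in cancer-like, fibroblast-like, myeloid-like and lymphoid-like cells with control IgG, and at 62.2, 80.0, 239 and 201 CPM with the antibody. Tap2, its partner subunit, was at 18.6, 69.3, 98.2 and 126 CPM with control IgG and at 19.3, 64.7, 118 and 156 CPM with the antibody. For Tap1 the myeloid-like class was highest and for Tap2 the lymphoid-like class, in both libraries, with no overlap of intervals between neighbours. Tapbp was at 59.7, 267, 323 and 171 CPM with control IgG and at 57.7, 243, 305 and 197 CPM with the antibody, so that fibroblast-like cells held more of the loading factor than lymphoid-like cells while holding less of both transporter subunits.

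The immunoproteasome subunits were highest in myeloid-like cells in both libraries. Psmb8 was at 173, 380, 782 and 620 CPM in the 4 classes with control IgG and at 138, 260, 735 and 503 CPM with the antibody. Psmb9 was at 103, 182, 373 and 359 CPM with control IgG and at 83.5, 130, 423 and 359 CPM with the antibody, and the intervals of its myeloid-like and lymphoid-like cells overlapped with control IgG. Psmb10 was the least varied, at 137, 150, 283 and 174 CPM with control IgG and 124, 137, 256 and 169 CPM with the antibody, and its cancer-like and fibroblast-like intervals overlapped in both libraries. Nlrc5 was highest in lymphoid-like cells, at 171 CPM (167 to 176) with control IgG and 198 CPM (192 to 203) with the antibody. It was at 24.7, 30.3 and 76.8 CPM in cancer-like, fibroblast-like and myeloid-like cells with control IgG and at 22.9, 20.2 and 85.5 CPM with the antibody. The intervals of cancer-like and fibroblast-like cells overlapped in both libraries.

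In all, 10 of the 10 genes were lowest in cancer-like cells with control IgG and 9 with the antibody, the exception being Nlrc5, whose fibroblast-like level of 20.2 CPM (15.9 to 25.3) overlapped the cancer-like level. Cancer-like cells had the most UMIs per cell, with a median of 58176 and 55954. The median was 16549 and 10191 in fibroblast-like cells and between 4137 and 7178.5 in the immune classes. Levels in CPM are shares of the UMIs of a class, so the lowest level need not mean the fewest UMIs per cell. For H2-K1 it did not. With control IgG 315 cancer-like cells held 13275 of its UMIs and 2977 CD8 T-like cells held 39927, which is more per cancer-like cell. Free RNA, taken from barcodes with under 100 UMIs, carried 1238 and 1665 CPM of H2-K1, above the level in cancer-like cells. Skeletal muscle transcripts, which the cells themselves should lack, were 1.08% and 0.496% as abundant in cancer-like cells as in free RNA, and 1.12% in fibroblast-like cells of both libraries. With free RNA subtracted at those shares, the median log2 ratio of the 10 genes in fibroblast-like cells was -0.51, and it was -0.50 without subtraction.

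To compare cells rather than sums, 2000 UMIs were drawn from each cell, and at most 171 shallower cells of a class and library were dropped. Cancer-like cells held a median of 4 UMIs of H2-K1, H2-D1 and B2m together in both libraries, and 9.52% and 9.70% of them held none. In fibroblast-like cells the median was 16 with control IgG and 9 with the antibody, and the middle 50% of cells lay between 11 and 23 and between 5 and 15. The median was 15 and 13 in myeloid-like cells and 12 in lymphoid-like cells of both libraries, where the middle 50% ran from 9 to 15 and from 9 to 16. The 5th percentile in fibroblast-like cells was 5 and 2 and the 95th was 35 and 25, so the distribution was lower over its whole range with the antibody. Before thinning at least 96.8% of cells of every class and library held an H2-K1 UMI. After thinning the share was 62.2% (exact Clopper-Pearson interval 56.6% to 67.6%) and 60.3% (54.8% to 65.6%) in cancer-like cells, 96.3% (93.0% to 98.3%) and 87.3% (82.5% to 91.1%) in fibroblast-like cells, and 94.9% or more in the immune classes. Before thinning, with control IgG, a Tap1 UMI was held by 79.0% of cancer-like, 71.6% of fibroblast-like, 72.0% of myeloid-like and 55.2% of lymphoid-like cells. For Psmb9 (86.3%) and Psmb10 (93.0%) the cancer-like share was also the highest there, and for the other genes it was not. After thinning the cancer-like share for Tap1 was 8.89%, the lowest of the classes. The intervals of these shares treat cells as separate draws and leave out the spread between mice and between libraries. No class can be taken to lack class I transcripts, so none gives the background of these shares.

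**Figure D2:**
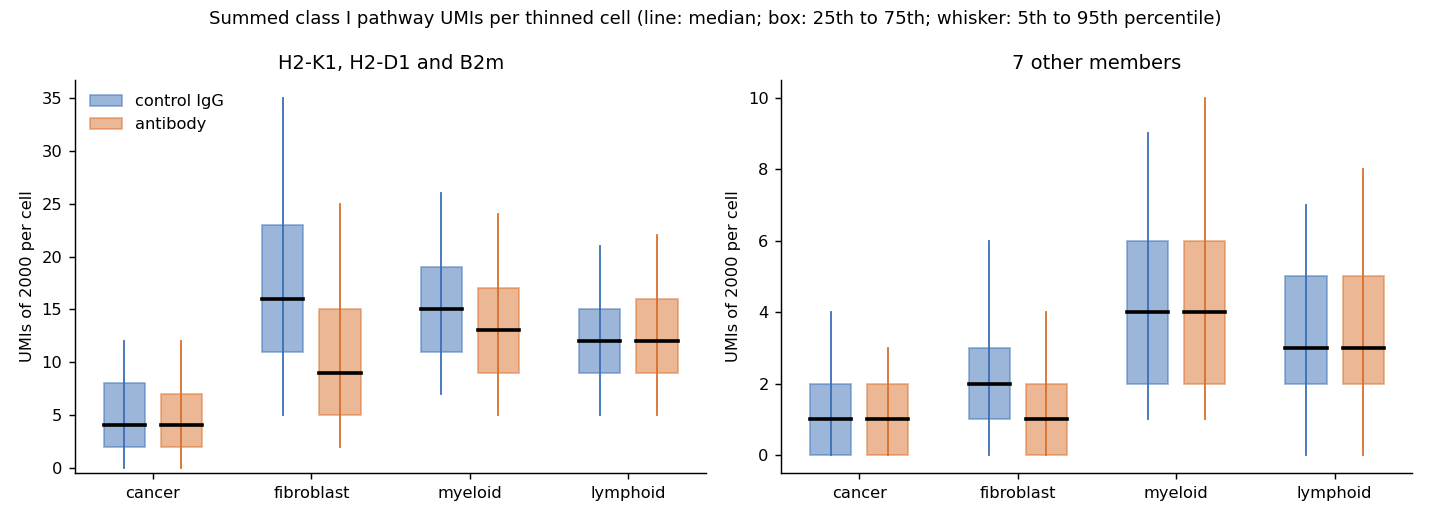
Summed UMIs per cell after thinning each cell to 2000 UMIs (y axis), for H2-K1, H2-D1 and B2m (left) and for the 7 other genes (right), in the 4 classes with control IgG (blue) and the antibody (orange), where black lines are medians, boxes span the 25th to 75th percentile and whiskers the 5th to 95th. The left median of fibroblast-like cells is 16 with control IgG and 9 with the antibody, and the cancer-like medians are 4 in both.

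Within the immune and stromal classes the genes peaked in different kinds of cells. With control IgG the heavy chains were highest in fibroblast-like cells with under 2 of the myofibroblast markers Acta2, Tagln and Myl9 (3396 CPM of H2-K1 and 3325 CPM of H2-D1). Myofibroblast-like cells, the contractile fibroblasts with at least 2 of these markers, came next (2708 and 2778 CPM). With the antibody the same kinds held 2175 and 1953 CPM of H2-K1, and NK-like cells were highest at 2833 CPM. Dendritic-like cells, specialists in presenting antigen to T cells, were highest for Tap1 (299.7 CPM with control IgG and 326 CPM with the antibody), Psmb8 (1263 and 1132 CPM) and Psmb9 (607 and 641 CPM). Monocyte-like cells were highest for Psmb10 (362 and 309 CPM). Tap2 was highest in CD4 T-like cells (142 and 181 CPM) and Nlrc5 in CD8 T-like cells (183 and 215 CPM). B-like cells held the least Psmb10, 97.7 and 91.6 CPM, below cancer-like cells, and were the low end of the immune cells for H2-D1, at 1536 and 1334 CPM. The highest and next kinds had overlapping intervals for Tap1 and B2m with control IgG, for H2-D1 and Psmb10 with the antibody, and for Tap2, Tapbp and Nlrc5 in both libraries.

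**Figure D3:**
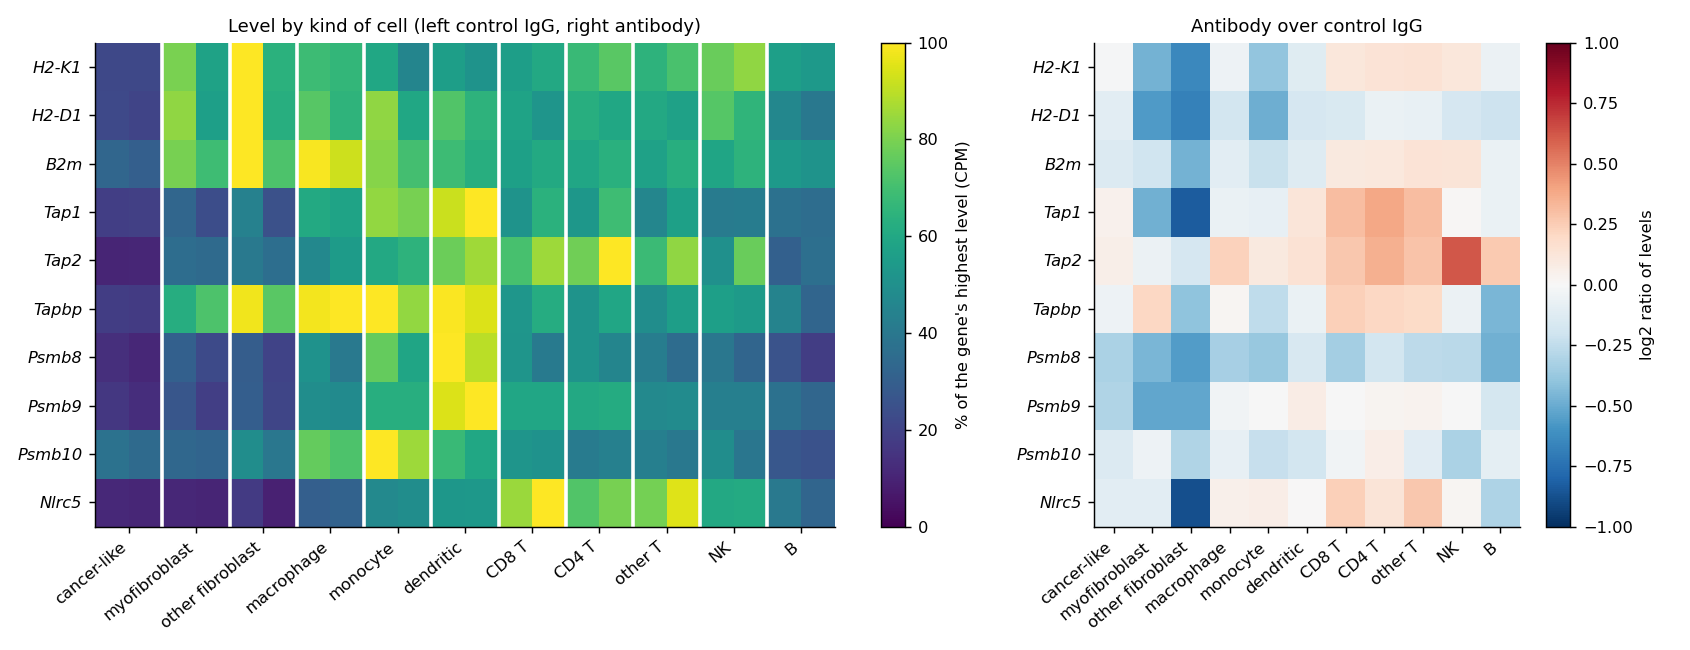
Left, level of the 10 genes (rows) in 11 kinds of cells (columns, control IgG left and antibody right in each pair) as a percentage of the gene's highest level in CPM. Right, log2 ratio of antibody over control IgG per kind, blue where lower and red where higher with the antibody. All 10 genes are blue in fibroblast-like cells with under 2 myofibroblast markers.

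The share of the inducible subunit in each proteasome pair separated cancer-like cells from the rest. Psmb8 made up 32.7% (exact interval 31.8% to 33.7%) of the UMIs of Psmb8 and Psmb5 in cancer-like cells with control IgG and 26.9% (26.1% to 27.9%) with the antibody. It made up 65.6% and 60.1% in fibroblast-like cells, 82.2% and 78.6% in myeloid-like cells and 76.3% and 74.9% in lymphoid-like cells. Psmb9 made up 22.4% and 18.6% of Psmb9 and Psmb6 in cancer-like cells, 45.2% and 39.0% in fibroblast-like cells and 61.2% to 66.3% in the immune classes. Psmb10 made up 37.5% and 35.0% of Psmb10 and Psmb7 in cancer-like cells and between 63.2% and 73.8% in the other classes. In cancer-like cells Psmb5, Psmb6 and Psmb7 were at 355, 355 and 228 CPM with control IgG and at 375, 365 and 231 CPM with the antibody, the highest of the 4 classes in both libraries. The low shares there thus come with both less of the inducible and more of the constitutive subunits.

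**Figure D4:**
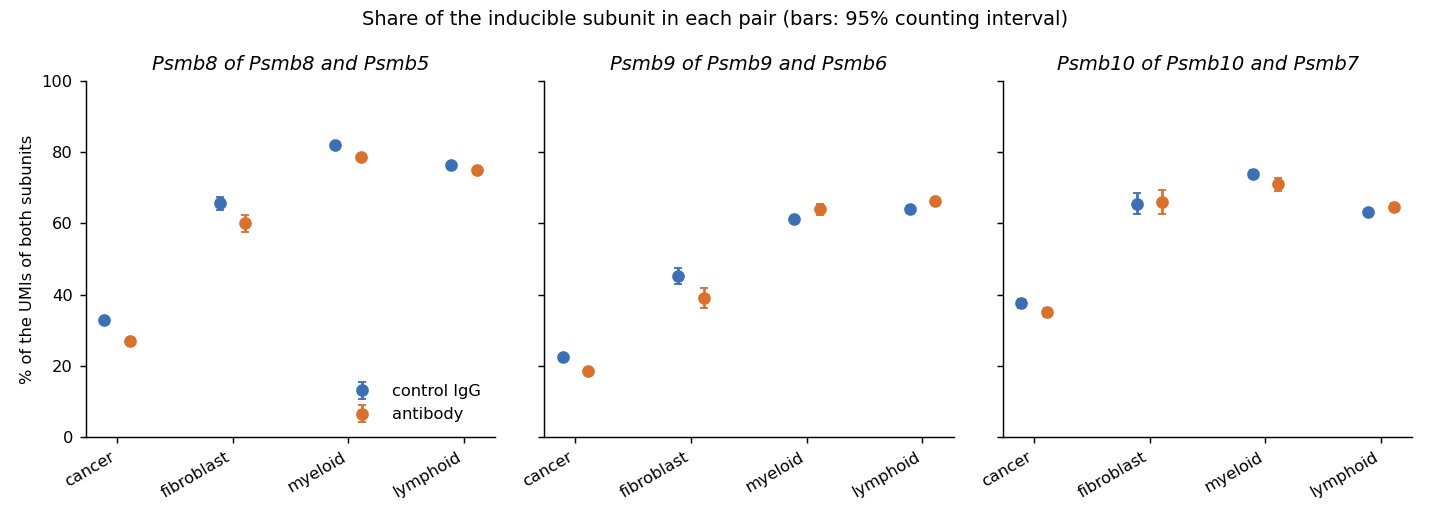
UMIs of the inducible subunit as a percentage of the UMIs of both subunits of a pair (y axis, 0 to 100%), in the 4 classes (x axis) with control IgG (blue) and the antibody (orange), where bars are exact 95% intervals. Cancer-like cells lie between 18.6% and 37.5%, below every other class in all 3 pairs.

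The libraries differed most in fibroblast-like cells, where all 10 genes were lower with the antibody. The median log2 ratio of antibody over control IgG was -0.50 for the 10 genes and 0.02 for all 12477 genes tested, those with at least 20 UMIs over both libraries. Tap1 differed by -0.66 (95% interval -0.87 to -0.46) and H2-D1 by -0.59 (-0.63 to -0.55). These 2 were the genes at least 1.5-fold lower, against 7.89% of all genes tested. The intervals of the 2 span the 1.5-fold line, and H2-D1 lay barely past it. None was 1.5-fold higher, against 9.08%. Nlrc5 at -0.58 (-1.01 to -0.17), on 139 and 75 UMIs, lay just inside the 1.5-fold line, followed by Psmb8 at -0.55, H2-K1 at -0.53 and Psmb9 at -0.48. B2m was at -0.34, and Tapbp, Psmb10 and Tap2 were at -0.13, -0.13 and -0.10. The intervals of 8 of the 10 genes lay below 0, those of Tap2 and Psmb10 did not. The count depended on how cells were weighted and gated, and with each cell weighted equally or with a stricter gate 6 genes were 1.5-fold lower. With the class taken from clusters of cells the count stayed at 2. The share of all genes past the line was not counted in those settings.

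The lower level held in both kinds of fibroblast-like cells, with sizes that differed. In the 169 and 221 cells with under 2 myofibroblast markers the median log2 ratio was -0.54. There 4 genes were 1.5-fold lower, Nlrc5 (-0.88), Tap1 (-0.83), H2-D1 (-0.67) and H2-K1 (-0.64). In the 74 and 32 myofibroblast-like cells the median was -0.33 and none was, with H2-D1 at -0.57 and Tapbp at 0.21. Split by mesothelial markers, the 189 and 211 cells with under 2 of them had a median of -0.69, with 6 genes 1.5-fold lower. The 54 and 42 cells with 2 or more had a median of -0.19. In these 1 gene was 1.5-fold lower, Nlrc5 (-0.65, -1.47 to 0.14, on 40 and 22 UMIs). Another 4 were above 0, Tap2 (0.37), Psmb10 (0.21), Psmb9 (0.06) and B2m (0.04), all with intervals that span 0. The difference was thus smaller in the cells that also carried mesothelial markers. Those had a median of 27910 and 30540 UMIs per cell, against 13062 and 8099 in the others. No share of all genes past 1.5-fold was counted in these subsets of cells, so the counts of genes there stand without a comparison.

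Other RNA moved with this result. In fibroblast-like cells the summed level of the 19 myeloid markers was 277 CPM with control IgG and 129 CPM with the antibody, with 1 and 6 of them at 0. The 12 lymphoid markers summed to 147 and 85.4 CPM, with 1 and 3 at 0, and the 3 myofibroblast markers to 1842 and 315 CPM. Without the cells that had at least 2 myeloid or 2 lymphoid markers, 102 of 243 and 188 of 253 cells were left. Among them the median log2 ratio was -0.68, larger than in the whole class. There 6 genes were 1.5-fold lower, and the share of all genes was not counted. This filter took a larger share of the control IgG cells, which were deeper (median 16549 and 10191 UMIs per cell). What that unequal choice of cells did to the ratio was not tested. The part of the myofibroblast mix was not tested beyond the split above.

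In the other classes no gene of the 10 passed 1.5-fold in either direction. In cancer-like cells the share of all genes past it was 4.68% higher and 8.06% lower, and the median log2 ratio of the 10 was -0.11 beside -0.06 for all genes. Psmb8 (-0.32, -0.39 to -0.24) and Psmb9 (-0.30, -0.40 to -0.20) were the lowest there, while H2-K1 was at -0.01 (-0.05 to 0.02). In myeloid-like cells the shares of all genes were 11.2% and 7.05%, and the medians -0.09 and 0.06. H2-K1, H2-D1 and B2m were at -0.21, -0.27 and -0.27 and Tap2 at 0.26. There were 1422 and 419 macrophage-like cells, and neutrophil markers summed to 276 CPM with control IgG and 8431 CPM with the antibody in the myeloid-like class. In macrophage-like cells alone the median was -0.06 and H2-K1 was at -0.05, while Psmb8 was at -0.33 against -0.09 in the class. Tap1 turned from 0.09 to -0.07 and Psmb9 from 0.18 to -0.04. In monocyte-like cells H2-K1 was at -0.40 and H2-D1 at -0.49.

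Lymphoid-like cells were the class where most of the 10 genes were higher with the antibody, by small amounts. The shares of all genes past 1.5-fold were 4.95% higher and 5.57% lower, and the median log2 ratio was 0.12 beside 0.03 for all genes. Tap1 and Tap2 were at 0.30 (0.25 to 0.36 and 0.24 to 0.37), Nlrc5 and Tapbp at 0.20, H2-K1 at 0.12 and B2m at 0.11, while Psmb8 was at -0.30 (-0.33 to -0.27) and H2-D1 at -0.12. The kinds of lymphoid-like cells differed, with a median of 0.11 in CD8 T-like, 0.11 in CD4 T-like and 0.14 in other T-like cells. In NK-like cells Tap2 was 1.5-fold higher (0.62), with no share of all genes counted there. The median in NK-like cells was 0.0036 with 5 genes below 0. In B-like cells it was -0.14 with 9 genes below 0. H2-K1 and H2-D1 thus lay on opposite sides of 0 in lymphoid-like cells, and the UMIs of H2-K1 per UMI of H2-D1 were 1.04 with control IgG and 1.23 with the antibody. This ratio was also higher with the antibody in cancer-like (1.01 and 1.08), fibroblast-like (1.00 and 1.04) and myeloid-like cells (0.895 and 0.929). Free RNA held 1238 and 1665 CPM of H2-K1 and 1185 and 1237 CPM of H2-D1. The log2 ratio of H2-D1 was below 0 in every class. Between classes the log2 ratio of Tap1 in fibroblast-like cells minus that in lymphoid-like cells was -0.96 (counting interval -1.17 to -0.75), and for 9 of the 10 genes that difference had an interval below 0, with none above.

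**Figure D5:**
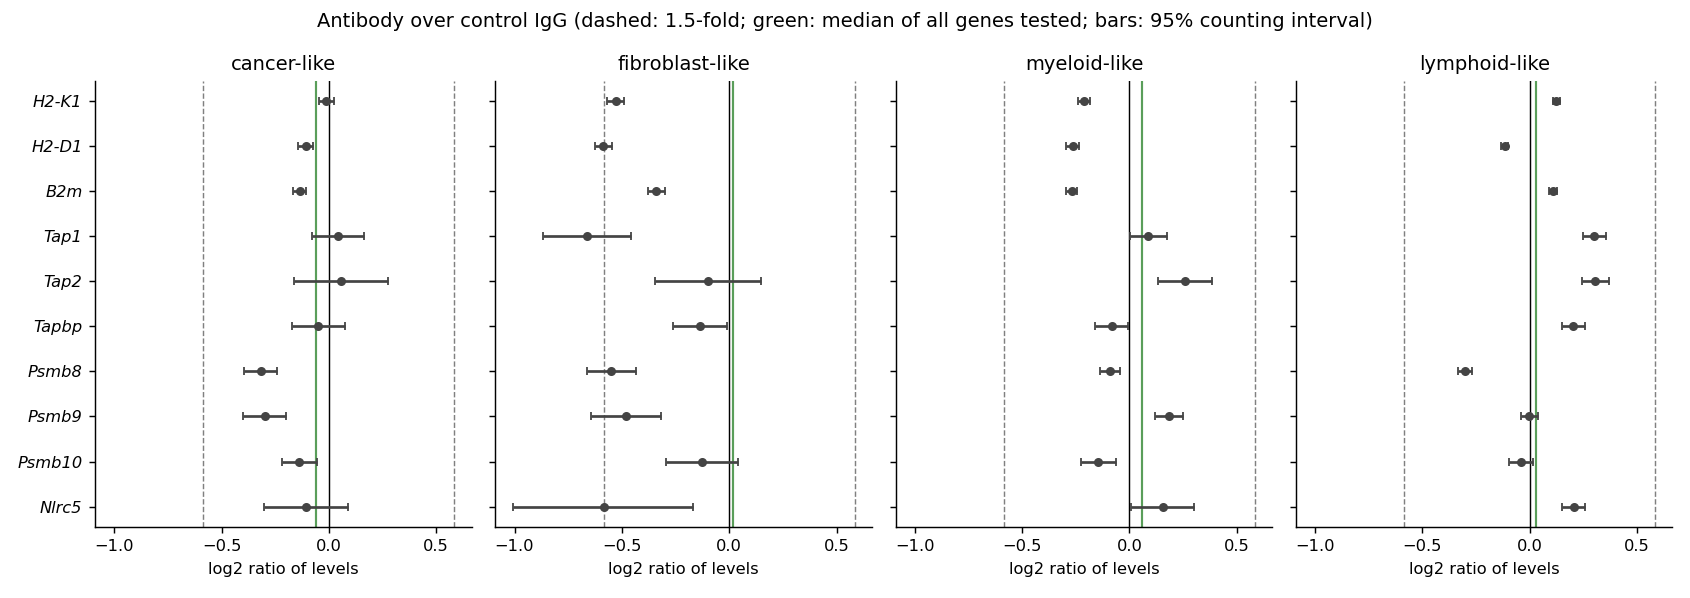
Log2 ratio of levels, antibody over control IgG (x axis), of the 10 genes (rows) in each class (panels), where bars are 95% counting intervals, dashed lines mark 1.5-fold and the green line is the median of all genes tested. In fibroblast-like cells all 10 points lie left of 0, and Tap1 (-0.66) and H2-D1 (-0.59) lie past the dashed line.

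The wider class I list held 30 genes of peptide trimming and loading, non-classical heavy chains, proteasome activators, constitutive proteasome subunits and transcription factors. Of 29 genes tested in fibroblast-like cells 3 were 1.5-fold lower and none higher, beside the same 7.89% and 9.08% of all genes, with a median of -0.19. The 3 were class Ib heavy chain genes of the H2-Q region, which resemble each other so that their reads may be split, H2-Q6 (232 and 119 CPM, -0.97), H2-Q7 (610 and 357 CPM, -0.77) and H2-Q4 (128 and 80.3 CPM, -0.67). The other heavy chain genes of the list did not pass. In cancer-like cells H2-Q10 (-1.19), Cd1d1 (-1.09), which presents lipids, and H2-Q6 (-0.90) were lower of 29 tested, against 8.06% of all genes. They were all at or below 9.81 CPM, with H2-Q10 at 1.00 and 0.438 CPM. None was higher, against 4.68%. In myeloid-like cells Rfx5, a DNA-binding factor of the MHC enhanceosome, was higher (4.54 and 7.19 CPM, 0.66) and H2-Q10 lower (-0.69). This was of 30 tested, against 11.2% higher and 7.05% lower of all genes. In lymphoid-like cells H2-Q10 alone of 30 tested was past the line (-0.66), against 4.95% higher and 5.57% lower.

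The interferon genes, 24 of signaling and its targets, differed by class. Cxcl9, a chemokine induced by interferon gamma that attracts T cells, was lower with the antibody in all 4 classes, at 515 and 248 CPM in fibroblast-like cells (-1.06) and at 411 and 203 CPM in myeloid-like cells (-1.02). In cancer-like and lymphoid-like cells it was under 10 CPM, and free RNA held 52.9 and 29.9 CPM of it. Cxcl10, a chemokine for the same receptor, was at 77.3 and 149 CPM in cancer-like cells (0.94). Gbp4, an interferon-induced GTPase, was lower in fibroblast-like cells (-0.73). In lymphoid-like cells 4 of 24 were 1.5-fold higher and 1 lower, against 4.95% and 5.57% of all genes, with a median of 0.30, the 4 being Rsad2 (5.01 and 15.2 CPM, 1.60), Ifit1 (1.18), Ifit3 (0.78) and Isg15 (0.77), genes typical of the type I interferon response. Isg15 was also higher in myeloid-like cells (213 and 377 CPM, 0.82). The mix of myeloid-like cells differed between the libraries, and Cxcl9 and Isg15 were not measured in macrophage-like cells alone. Over the list, 1 gene was higher and 2 lower in fibroblast-like cells (9.08% and 7.89% of all genes), and 1 was higher and 1 lower in each of the cancer-like (4.68% and 8.06%) and myeloid-like classes (11.2% and 7.05%).

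The 1 gene higher in fibroblast-like cells was Ifng itself, which encodes interferon gamma, at 6.54 CPM with control IgG and 86.8 CPM with the antibody. Of its 322 UMIs with the antibody 310 came from 1 cell. Without that cell 12 UMIs were left, at 3.25 CPM, against 30 UMIs and 6.54 CPM with control IgG, and the log2 ratio turned from 3.73 to -1.01. No cell was taken out of the control IgG library for this ratio. Without its own top cell that library held 5.49 CPM.

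Class II genes, which present antigen to CD4 T cells, were lower with the antibody in fibroblast-like cells for all 7 genes. The median log2 ratio was -1.42, past 1.5-fold in each gene, against 7.89% of all genes. Cd74, the invariant chain, was at 1492 and 541 CPM (-1.46), H2-Aa at 304 and 109 CPM (-1.47), H2-DMb1 at -1.42, H2-Ab1 at -1.23 and H2-Eb1 at -1.18, while Ciita, their transactivator, was at 5.45 and 0.539 CPM, the latter from 2 UMIs (log2 ratio -3.34, -6.46 to -1.33). In cancer-like cells 5 of 7 were 1.5-fold lower, against 8.06% of all genes, led by H2-Aa (39.8 and 14.2 CPM) and Cd74 (131 and 48.8 CPM). In myeloid-like cells, where Cd74 stood at 16489 and 12215 CPM, none of 7 was past the line, against 7.05% lower of all genes. In lymphoid-like cells H2-Aa was past it (113 and 75.3 CPM, -0.59), against 5.57%. Free RNA held 2487 and 1349 CPM of Cd74, so it was lower there as well. How much of the class II signal outside myeloid-like cells was RNA of antigen-presenting cells was not tested.

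Over the 11 kinds of cells in both libraries, 22 points that share 2 libraries, the 5 other genes whose levels ran closest to the mean of the 10 (Pearson r of log2(CPM + 1), of 7899 genes ranked) were Dtx3l (r = 0.96), Trim30a (0.96), Phf11b (0.95), Rab29 (0.95) and Parp14 (0.95). Dtx3l is a ubiquitin ligase and Parp14 an ADP-ribosyltransferase, and Trim30a is a tripartite motif gene. Among the 10 themselves, each of which is part of that mean, r ran from 0.66 for Psmb10 to 0.94 for Tap1, with Psmb8 at 0.93. H2-K1 and B2m were at 0.67 and 0.69 and H2-D1 was at 0.79.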

How the data were processed

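Single-cell RNA sequencing of 2 pooled libraries, 1 for each antibody, was analysed. The deposited values are raw counts of UMIs per gene and barcode, without normalization or a cell filter by the authors. Per the file headers they were written by Cell Ranger 4, while the submitters' processing notes name Cell Ranger 7.0.1 and mm10. Totals were 98174850 UMIs (control IgG) and 74117462 (antibody). Genes were placed by identifier with GENCODE M21 (32235 of 32285 matched).

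Each cell was scored per class by its 3 highest markers (log of counts per 10000). At least 2 markers and a next class at no more than 0.5 of the score were required, a rule set after the files were seen. Cells where mesothelial, endothelial or muscle markers were highest (43 and 17) and cells without a class (469 and 406) were left out. Doublets were not removed by a caller. Cells with markers of 2 classes fell out of the gate only where the next class scored above 0.5 of the highest, and the others stayed in. Of the 243 and 253 fibroblast-like cells, 102 and 188 had under 2 myeloid and under 2 lymphoid markers. UMIs were summed per class and library (numpy 2.4.6, scipy 1.17.1). Log2 ratios carry conditional binomial 95% intervals for counting error only. They are too narrow where a gene's UMIs lie in few cells. On simulated fibroblast-like counts the ratios and intervals were tested before use, which cannot check the spread between mice or libraries. Alternatives were other weights, gates, free RNA, depth, thresholds and, for the classes, Leiden clusters (scanpy 1.11.5, leidenalg 0.10.2). Kinds of cells had at least 30 cells per library, so that neutrophil-like cells (23 and 28) were left out.

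The 10 genes, the gene lists and the tests were chosen with earlier results of these data known. All 10 genes are named. Of each list, genes past 1.5-fold with at least 20 UMIs over both libraries are named, at most 6 per list and class, with the 5 genes of most like pattern. The constitutive proteasome subunits are named as partners of the inducible ones.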

Additional observations from a re-analysis of the deposited data

Results flagged for a closer look

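For 6 flagged genes the log2 ratio of antibody over control IgG had opposite signs in 2 classes, with counting intervals on opposite sides of 0. Each of the 6 also passed 1.5-fold in at least 1 class. H2-K1, B2m, Nlrc5 and Tapbp had such opposite signs in lymphoid-like and fibroblast-like cells too, but passed 1.5-fold in neither. With 1 library per group the differences were not tested. Tap1 was at 0.30 in lymphoid-like and -0.66 in fibroblast-like cells. H2-Q6, a class Ib heavy chain gene, was at 0.30 and -0.97 in the same classes, and Gbp4 at 0.39 and -0.73. Isg15 was at 0.82 in myeloid-like and -0.36 in fibroblast-like cells. Cxcl10 was at 0.94 in cancer-like and -0.38 in fibroblast-like cells. Rfx5 was at 0.66 in myeloid-like and -0.54 in cancer-like cells. The mix of myeloid-like cells differed between the libraries, and Isg15 and Rfx5 were not measured in macrophage-like cells alone.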

How the results depend on the processing

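No paired analysis was possible because only 1 library stands for each group, and no library could be left out for the same reason. The median of the 10 genes in fibroblast-like cells ran from -0.69 to -0.38 over 12 alternatives. It was -0.68 with cells weighted equally, -0.69 with a stricter gate, -0.61 without the 10% of cells with most UMIs, and, in alternatives chosen after seeing the data, -0.68 without cells with myeloid or lymphoid markers. It was -0.69 without cells with mesothelial markers. The count 1.5-fold lower there, 2 as reported, was 6 in each of these 5 settings and 5 after thinning. It was 4 without myofibroblast-marked cells (added after seeing the data) and 0 at 2-fold. With the class taken from the Leiden cluster the median was -0.38 and the count stayed at 2. The count was also 2 without the UMI minimum and with free RNA subtracted by haemoglobin transcripts. It was 3 after centring on the median of all genes, and with free RNA subtracted by muscle transcripts (added after seeing the data). How the share of all genes past the line moved in these settings was not tested. Tapbp turned to 0.0012 after thinning, and the other 9 genes stayed below 0 in every setting. In cancer-like cells the median was 0.0066 with a stricter gate, and 2 of the 10 genes (Psmb8 and Psmb10) kept their sign throughout. In lymphoid-like cells the median was 0.087 after centring on all genes. Ifng in fibroblast-like cells turned to -1.01 without 1 cell of the antibody library, an alternative chosen after seeing the data. Subtraction of free RNA by haemoglobin transcripts gave no value in myeloid-like cells, where these exceeded free RNA. The cause of the other moves was not tested. Nlrc5 in fibroblast-like cells rests on 139 and 75 UMIs, which limits its precision.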
